A study of Rattus norvegicus with 12 samples.

Results

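The 10 genes described here carry the Hedgehog signal, the parathyroid hormone-related protein (PTHrP) signal and the cartilage programme in bone: Ihh, Ptch1, Gli1, Hhip, Pthlh, Pth1r, Acan, Sox9, Sox5 and Comp. They were taken by gene name from the array design, where they had 16 probes, and 15 of these probes and all 10 genes passed the detection filter, among 22718 gene names that passed. The tissue was calvaria, the bone of the skull roof, of rats aged 10 weeks, profiled 72 h after surgery on 1-colour Agilent arrays, with 4 arrays in each of 3 groups. In the laser group bone was removed over a rectangle of 8 by 3 mm by an Er:YAG laser, whose infrared light ablates mineralised tissue. In the bur group a defect of the same size was drilled with a rotating bur. In the control group bone was not ablated. The treatment protocol has the periosteum taken off control bone, whereas the series design describes these samples as non-treated. Labels give neither strain nor sex, and do not say whether the 4 samples of a group were different animals. The p-values hence measure no more than the spread among these samples, and that spread may be technical.

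Hedgehog ligands bind the receptor Ptch1, which otherwise holds the membrane protein Smo inactive, and the released signal ends at the Gli transcription factors. Ptch1, Gli1 and Hhip are themselves targets of the signal. In the growth plate Ihh from maturing chondrocytes maintains PTHrP, which acts through Pth1r to delay further maturation, and Sox9 with Sox5 and Sox6 drives matrix genes such as Acan and Comp. The calvaria forms directly from mesenchyme without a cartilage model, and in bone Pth1r is known as a receptor of osteoblasts and osteocytes.

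Values are log2 of the background-subtracted spot signal relative to the 75th percentile of the same array, so a negative value is a spot dimmer than that percentile. Levels are compared between groups for 1 probe at a time and never between probes. Differences were tested with limma over all 22718 genes, with Benjamini-Hochberg adjustment and a threshold of 0.05. On each array 58.1% to 67.0% of probes stood well above background. The control arrays were on 1 slide and the laser and bur arrays on another, and the slides were scanned apart. The effects of slide, scan and group hence cannot be told apart when either treatment is set against control. On their slides the laser and control arrays lay in column 2 and the bur arrays in column 1. Column and group thus cannot be told apart when bur is set against laser or control. Among the controls, replicate 3 lay nearest to the treated arrays, and the controls were widely spread. On principal component 1, which held 49.5% of the variance, treated arrays lay between -53.1 and -7.43 and control replicate 3 at 6.67, against 102, 55.5 and 122 for control replicates 1, 2 and 4.

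Each gene was read through 60-base probes, and the stretches that matter for the results are printed 5′ to 3′ as designed on the array. The Ihh and Hhip probes end near a polyadenylation signal, whose letters AATAAA or ATTAAA are in capitals. One or both of these signals were present in 12.6% of the 45598 probes.
Ihh, last 30 bases of the probe: tgttttggtctttcttttgtAATAAAaatt
Hhip, last 30 bases of the probe: aatgtggtgggggtatttttatATTAAAgg
The 2 Pth1r probes are shown because they gave different results. Capitals mark copies of GTCT at the start of each. The brighter probe, at base 7523 of a predicted transcript, holds 5 copies of GTCT in its 60 bases, and 7 of the 45598 probes, this one included, hold as many or more (0.0154%). The dimmer probe, at base 1311 of another transcript, holds 2.
Pth1r, base 7523, first 30 bases of the probe: GTCTGTCTGTCTgtgtgccagtatgtattt
Pth1r, base 1311, first 30 bases of the probe: GTCTtcatggccttgccgtacaccgaggtc
The Sox9 probes at bases 1508 and 443 of the same transcript also differed in result. Both had 60.0% G and C, and no letters are marked in them.
Sox9, base 1508, first 30 bases of the probe: aactgagcccgagccactacagcgagcagc
Sox9, base 443, first 30 bases of the probe: agaacacacggccccaggagaacacgttcc

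On build rn4, per the file headers, the probes lie at chr9:74287130-74287189 (Ihh, minus strand), chr17:7142363-7142422 (Ptch1, plus strand), chr7:67288638-67288697 (Gli1, minus strand) and chr19:29840368-29840427 (Hhip, plus strand). The Pthlh probe lies at chr4:184887732-184887791 on the minus strand. The Pth1r probes lie on the minus strand at chr8:115096115-115096174 (base 7523) and chr8:115100936-115100995 (base 1311). The Acan probe maps to chr1:134846027-134846595 on the plus strand, a span of 569 bases for a probe of 60. The brightest Sox9 probe lies at chr10:102388891-102388950 on the plus strand and the brightest Sox5 probe at chr4:180399384-180399443 on the minus strand. No position on rn4 was given for Comp, and exon and UTR annotation of these positions was not used here.

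The first comparison, of laser with control bone, asked what ablation by laser changed. Ihh and Acan rose and Pth1r fell, and 7 of the 10 genes did not pass the test. Over all genes 9.26% rose and 13.0% fell in this comparison, and read against these shares 2 rises and 1 fall are no result about the 10 genes as a set. Without overlap between laser and control arrays, 1 of the 10 genes was higher (Ihh) and 1 lower (Pth1r), against 8.87% and 10.1% of all genes. The median log2 difference of the 10 genes was 0.50 and that of all genes 0.02.

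The second comparison, of bur with control bone, asked what drilling changed. Pth1r and Hhip fell, none of the 10 genes rose, and 8 did not pass. Over all genes 9.99% rose and 16.2% fell. Pth1r was lower in bur than in control bone without overlap, and no gene of the 10 was higher without overlap, against 15.7% and 9.60% of all genes. The median log2 difference of the 10 genes was 0.20 and that of all genes -0.0001. Both comparisons share the control arrays, so their values are given side by side.

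**Figure D1:**
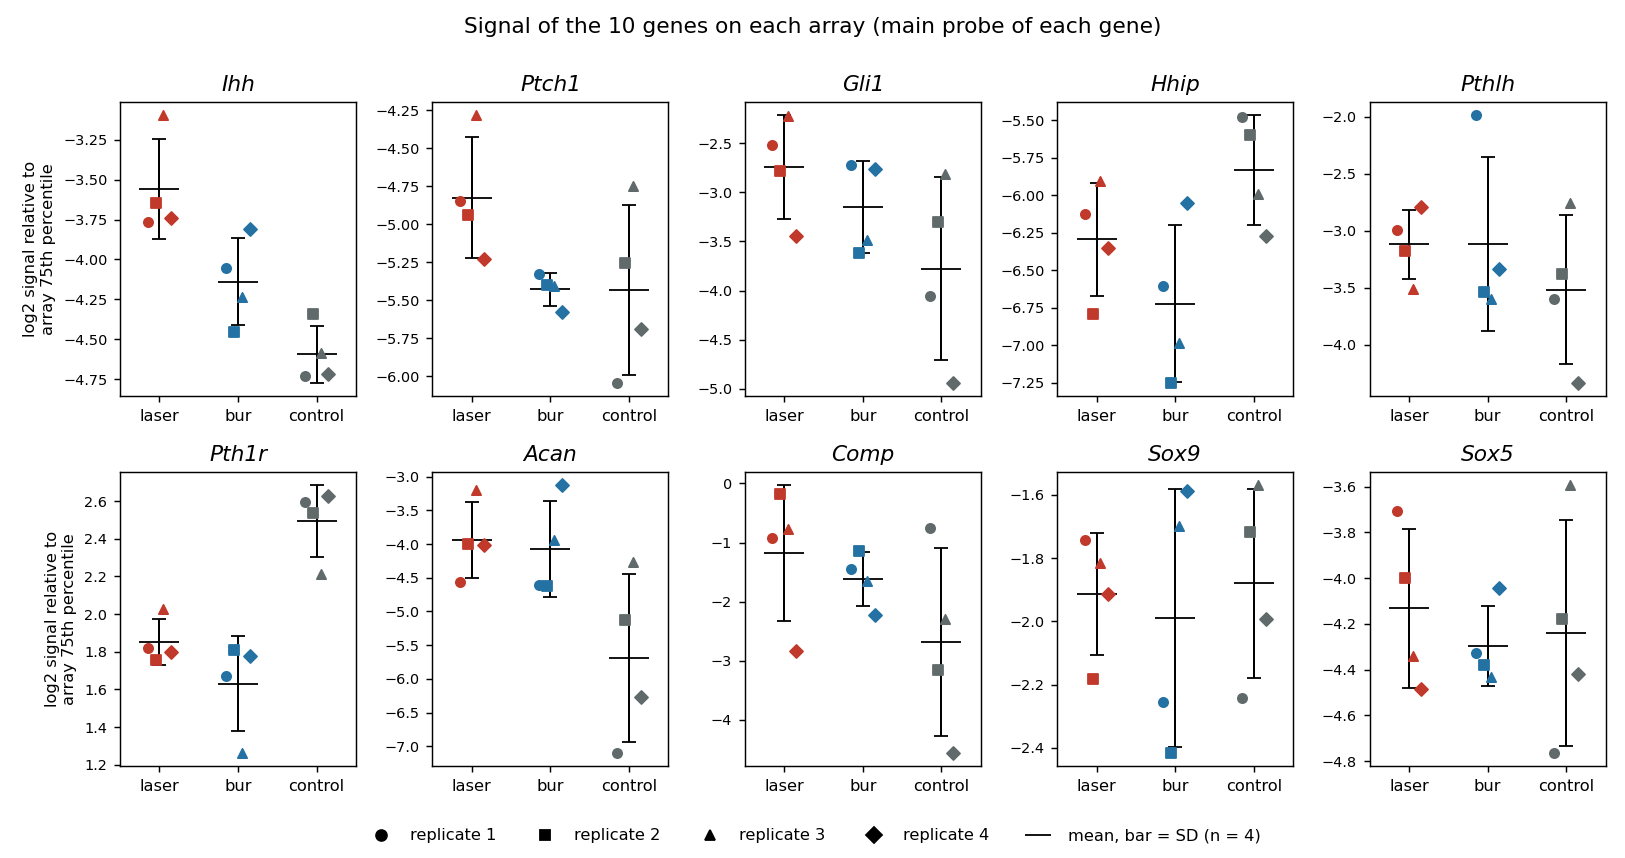
Signal of each of the 10 genes on every array, in log2 units against the 75th percentile of the array, with the mean and SD of the 4 arrays of the laser, bur and control groups. Ihh on all 4 laser arrays lies above all control arrays, and Pth1r on all laser and bur arrays lies below all control arrays.

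Ihh encodes Indian hedgehog, the Hedgehog ligand of the skeleton. Its signal was -3.76, -3.64, -3.10 and -3.74 on laser arrays 1 to 4, and -4.05, -4.45, -4.24 and -3.81 on bur arrays 1 to 4, against -4.73, -4.34, -4.58 and -4.72 on control arrays 1 to 4. Every laser array was above every bur and control array, while bur replicate 2 lay among the controls. Laser minus control was 1.03 (SE 0.19, 95% limits 0.62 and 1.44, limma adjusted p = 0.00852), a 2.04-fold rise that exceeded the SDs of 0.31 in laser and 0.18 in control bone. In bulk tissue a change in the number of cells of a type and a change in RNA per cell cannot be told apart, here and in the results that follow. Bur minus control was 0.45 (SE 0.19, 95% limits 0.04 and 0.86, limma adjusted p = 0.0913). The rise with laser passed in each of the 12 fits that left out 1 array, with differences of 0.88 to 1.11, and was 1.03 without control replicate 3. With normexp background correction it was 0.45 (limma adjusted p = 0.0540).

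Ptch1 encodes the Hedgehog receptor. Its signal was -4.84, -4.94, -4.28 and -5.23 on laser arrays and -5.32, -5.40, -5.41 and -5.58 on bur arrays, against -6.04, -5.25, -4.75 and -5.69 on control arrays. The 4 bur arrays lay within the range of the controls, and 1 laser array exceeded all controls. Laser minus control was 0.61 (SE 0.27, 95% limits 0.02 and 1.19, limma adjusted p = 0.116) and bur minus control was 0.01 (95% limits -0.58 and 0.59, limma adjusted p = 0.989). Control replicate 3 was the highest control, and leaving it out gave 0.84 for laser (limma adjusted p = 0.0201). That was the only 1 of 12 such fits to pass, and without control replicate 1 the laser difference was 0.405 (limma adjusted p = 0.295). Ptch1 also passed with laser on the deposited log2 table, at 0.47 (limma adjusted p = 0.0349).

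The window from 250 bases before to 50 bases after the Ptch1 start, chr17:1555321-1555620 on the plus strand of build GRCr8 from RefSeq, was searched on both strands for GACCACCCA, a core of the Gli binding motif. It held 1 match, on the minus strand, whose first base is 172 bases before the start. The motif was present in 129 of 33469 promoter windows of this length (0.385%). The promoter table held 5 of the 10 genes, namely Acan, Pth1r, Comp, Ptch1 and Hhip, and only the Ptch1 window among them had a match. A match is a run of letters and was not tested for binding. The 250 bases before the start, chr17:1555321-1555570, are printed because Ptch1 is the standard target by which Hedgehog signalling is read, with the match in capitals as it reads on the plus strand.
Ptch1 promoter: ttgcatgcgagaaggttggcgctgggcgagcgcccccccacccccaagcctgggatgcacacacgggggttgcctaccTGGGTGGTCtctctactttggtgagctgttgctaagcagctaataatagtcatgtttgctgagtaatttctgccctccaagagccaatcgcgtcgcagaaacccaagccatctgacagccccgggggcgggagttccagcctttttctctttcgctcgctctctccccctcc

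Gli1 encodes the Gli activator, whose own transcription follows the signal. Its signal was -2.52, -2.78, -2.22 and -3.45 on laser arrays and -2.73, -3.62, -3.49 and -2.76 on bur arrays, against -4.05, -3.30, -2.81 and -4.94 on control arrays. Control replicates 2 and 3 lay among the treated arrays and control replicates 1 and 4 below all of them. The difference of laser from control was 1.03 (SE 0.43, 95% limits 0.09 and 1.98, limma adjusted p = 0.0996) and bur minus control was 0.63 (95% limits -0.31 and 1.57, limma adjusted p = 0.292). The point estimate with laser equalled that of Ihh to 2 decimals, with an SD of 0.93 in control bone against 0.18 for Ihh. Leaving out control replicate 3 gave 1.36 for laser (limma adjusted p = 0.0264), and leaving out control replicate 4 gave 0.65.

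Hhip encodes a membrane protein that binds Hedgehog ligands and so limits the signal. Its signal was -6.12, -6.79, -5.91 and -6.35 on laser arrays and -6.60, -7.25, -6.98 and -6.05 on bur arrays, against -5.47, -5.60, -5.99 and -6.27 on control arrays. The probe was well above background on all laser and control arrays and on 3 of the 4 bur arrays. Bur replicates 1, 2 and 3 were below every control, while bur replicate 4 lay among the controls. Bur minus control was -0.89 (SE 0.28, 95% limits -1.51 and -0.27, limma adjusted p = 0.0390), so Hhip was 1.85-fold lower, and laser minus control was -0.46 (95% limits -1.08 and 0.16, limma adjusted p = 0.246). The call in bur bone was lost when laser replicate 4, bur replicate 1, 2 or 3, or control replicate 1 or 2 was left out (limma adjusted p = 0.0508 to 0.107), and in a fit on bur and control arrays alone (limma adjusted p = 0.0613). On the deposited log2 table the difference was -0.20 and did not pass either (limma adjusted p = 0.231).

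Of the other genes of the Hedgehog pathway 19 were measured out of 23. With laser 3 rose and 3 fell, and with bur 1 rose and 4 fell, with list medians of 0.27 and 0.11. Among all genes 9.26% rose and 13.0% fell with laser, and 9.99% rose and 16.2% fell with bur. The medians of all genes were 0.02 and -0.0001. Shh, Dhh, Hhat and Scube3 did not pass the detection filter, so Ihh was the only Hedgehog ligand gene with a tested value.

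Gli3, a Gli factor that acts mainly as a repressor, rose in both ablated groups. Its signal was -3.82 ± 0.22 in laser and -3.80 ± 0.31 in bur bone, against -5.41 ± 1.30 in control bone (SD, n = 4 each), a difference of 1.59 with laser (limma adjusted p = 0.0415) and 1.60 with bur (limma adjusted p = 0.0358). Smo, the signal transducer that Ptch1 restrains, rose by 1.23 with laser (SE 0.40, limma adjusted p = 0.0463). With bur Smo differed by 1.12 (limma adjusted p = 0.0575). Between laser and bur its difference was 0.11 (limma adjusted p = 0.9998). Smo was well above background on 2 of 4 control arrays. On control replicate 3 Gli3 was at -3.74 and Smo at -4.61, within the range of the treated arrays.

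Scube1, a secreted and cell-surface protein gene of the family that helps release Hedgehog ligands, fell by 2.03 with laser (SE 0.62, limma adjusted p = 0.0396) and by 2.04 with bur (limma adjusted p = 0.0342). Sufu, which encodes an inhibitor that binds Gli proteins, fell by 0.96 with laser (SE 0.20, limma adjusted p = 0.0145) and by 1.43 with bur (limma adjusted p = 0.00229). Its signal was 0.06, -0.70, -0.23 and 0.26 on laser arrays and -0.70, -0.72, -0.57 and -0.48 on bur arrays, against 0.44, 0.87, 0.88 and 1.05 on control arrays, without overlap. The other Sufu probe gave 0.31 with laser and 0.32 with bur and did not pass (limma adjusted p = 0.126 and 0.110 over probes). Gas1, a co-receptor gene, fell by 0.73 with laser (limma adjusted p = 0.0270) and by 0.83 with bur (limma adjusted p = 0.0137), while its other probe gave 0.60 and 0.27 and did not pass (limma adjusted p = 0.127 and 0.473 over probes). The 2 probes of Sufu and of Gas1 therefore differed in sign.

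**Figure D2:**
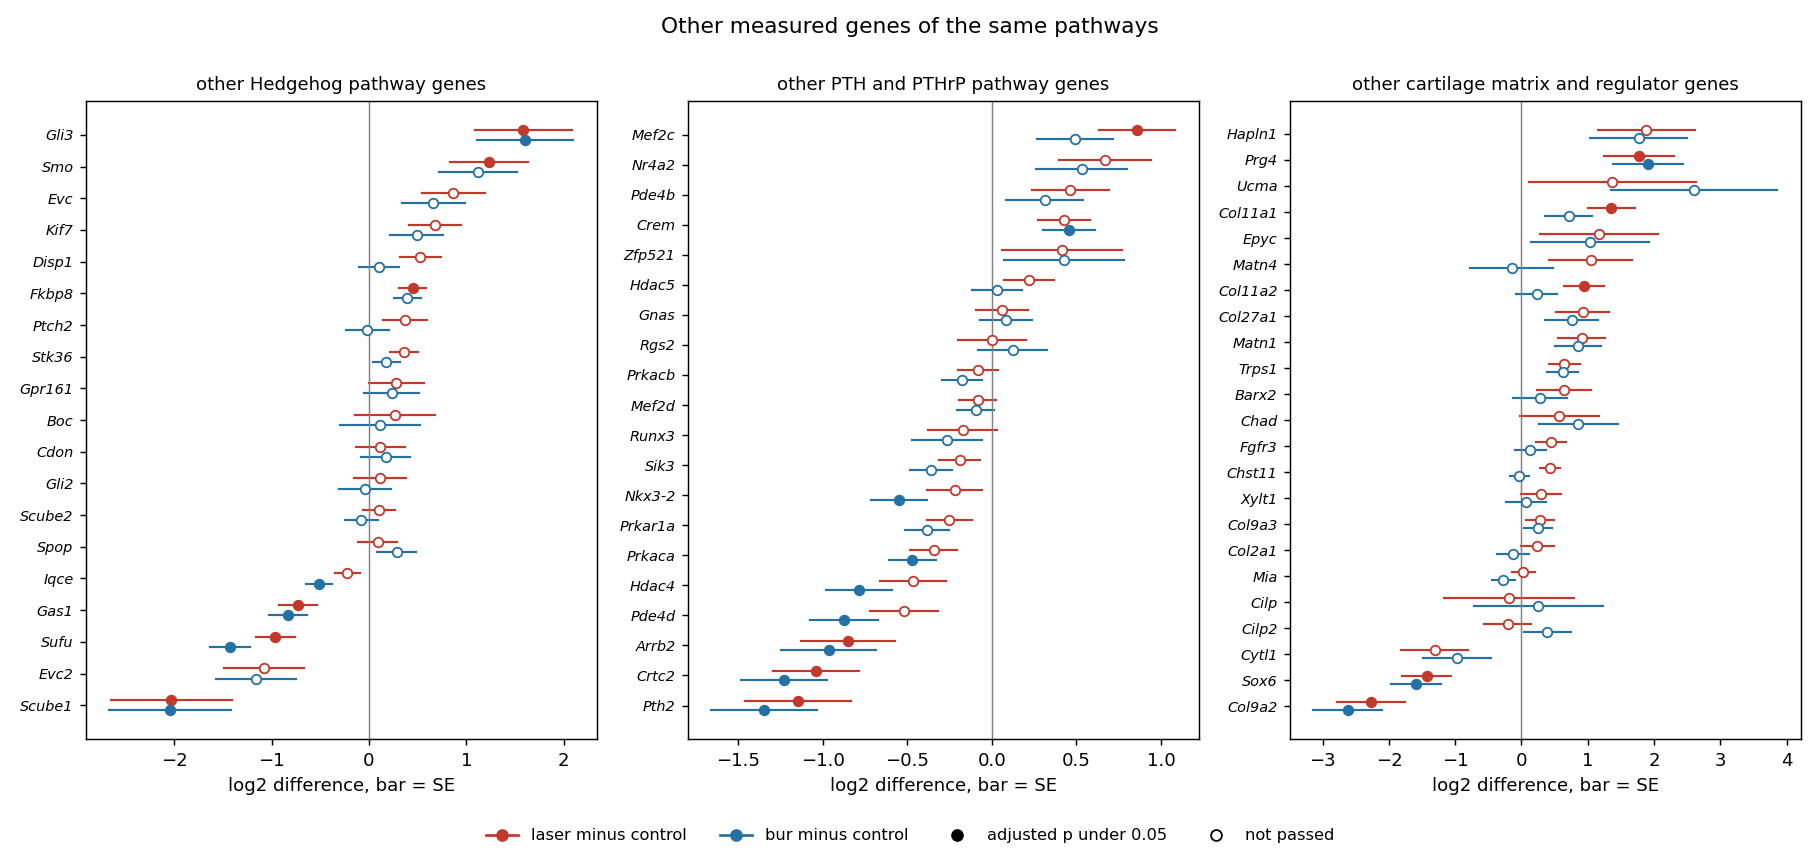
Log2 differences with SE for the other measured genes of the Hedgehog list (19), the PTH and PTHrP list (20) and the cartilage list (23), laser minus control in red and bur minus control in blue, with filled points for adjusted p under 0.05. Gli3 and Prg4 lie highest and Scube1 and Col9a2 lowest among the genes that passed in the Hedgehog and cartilage lists.

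Pthlh encodes PTHrP, the ligand that in growth plates slows chondrocyte maturation. Its signal was -3.00, -3.18, -3.51 and -2.79 on laser arrays and -1.99, -3.54, -3.60 and -3.34 on bur arrays, against -3.60, -3.38, -2.75 and -4.34 on control arrays. The groups overlapped, and bur replicate 1 stood far above every other array. The difference of laser from control was 0.40 (SE 0.39, 95% limits -0.45 and 1.25, limma adjusted p = 0.469) and bur minus control was 0.40 (95% limits -0.45 and 1.26, limma adjusted p = 0.458). Without bur replicate 1 bur minus control was 0.03. The skeletal muscle markers were also high on bur replicate 1, with a list mean of -1.42 against -5.06 to -4.48 on the other bur arrays. On control replicate 1 that mean was higher still, at -0.71, with Pthlh at -3.60. On laser replicate 1 it was -3.03, with Pthlh at -3.00. The part of muscle in the Pthlh values was not tested.

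Pth1r encodes the receptor shared by PTHrP and parathyroid hormone. Through its brighter probe, at base 7523, the signal was 1.82, 1.76, 2.03 and 1.80 on laser arrays and 1.67, 1.81, 1.26 and 1.77 on bur arrays, against 2.60, 2.54, 2.21 and 2.63 on control arrays. All 8 treated arrays were below all 4 controls, and control replicate 3 was the control nearest to them. Laser minus control was -0.64 (SE 0.15, 95% limits -0.98 and -0.31, limma adjusted p = 0.0194), or 1.56-fold lower. Bur minus control was -0.86 (SE 0.15, 95% limits -1.20 and -0.53, limma adjusted p = 0.00528), or 1.82-fold lower. Without control replicate 3 the differences were -0.74 and -0.96. The fall with bur passed in all 12 fits that left out 1 array, and the fall with laser in 10, not without laser replicate 2 (limma adjusted p = 0.0560) or control replicate 1 (limma adjusted p = 0.0582).

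The other Pth1r probe, at base 1311, did not repeat the fall. Its signal was 0.11, 0.12, 0.57 and 0.08 on laser arrays and -0.18, -0.08, -0.51 and -0.18 on bur arrays, against -0.46, -0.03, 0.15 and -0.90 on control arrays. Here the difference was 0.53 for laser (SE 0.22, limma adjusted p = 0.105 over 29775 probes) and 0.07 for bur (limma adjusted p = 0.833 over probes). With the mean of both probes the differences were -0.06 for laser (limma adjusted p = 0.809) and -0.40 for bur (limma adjusted p = 0.0740). The fall of Pth1r is thus a result of 1 probe of 2, and which transcripts each probe reads was not tested. Both probes were well above background on all 12 arrays.

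**Figure D3:**
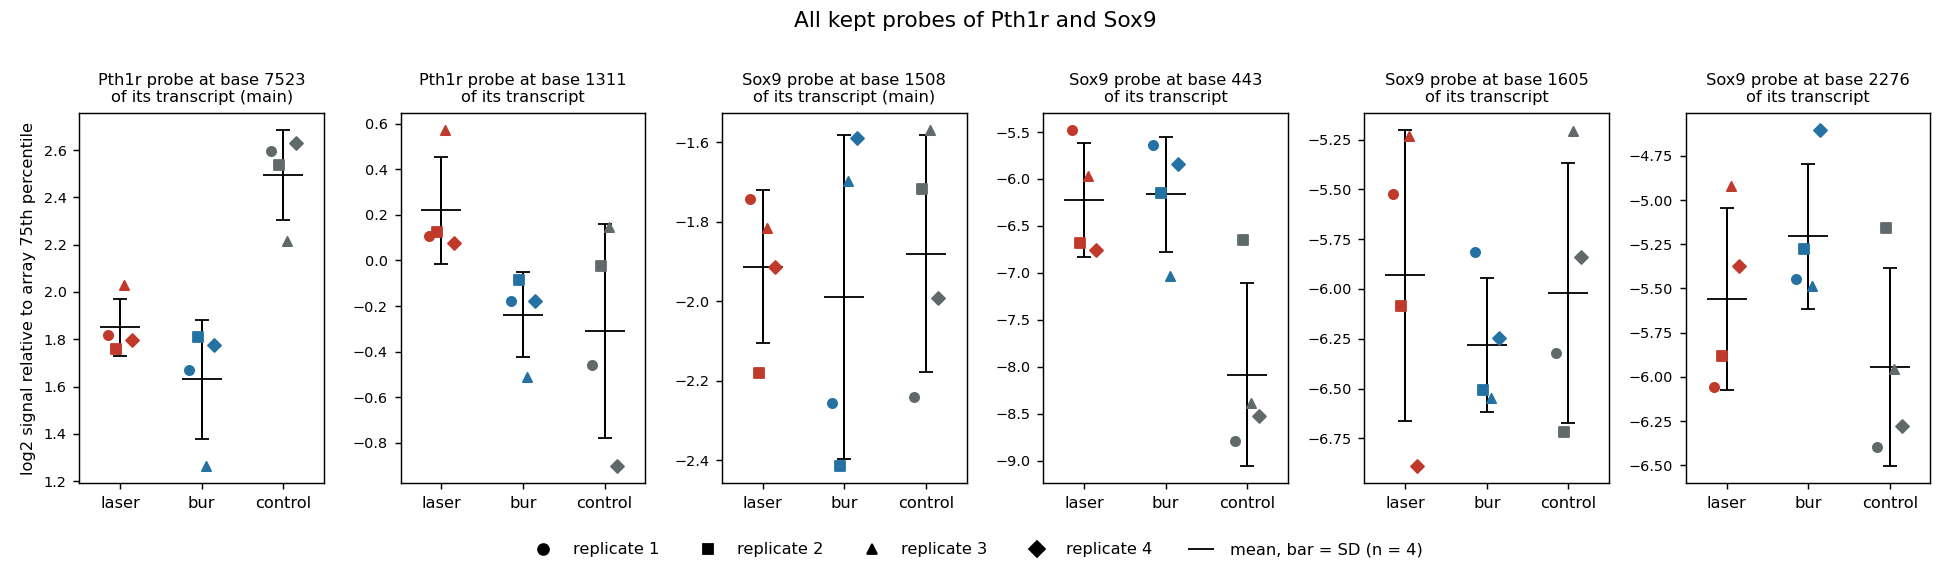
Signal of the 2 Pth1r probes and the 4 kept Sox9 probes on every array, in log2 units against the 75th percentile of the array, with mean and SD of the 4 arrays of the laser, bur and control groups. The Pth1r probe at base 7523 has all treated arrays below the controls and the probe at base 1311 does not, and the Sox9 probe at base 443 is lowest on control arrays 1, 3 and 4.

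Of the other PTH and PTHrP pathway genes 20 were measured out of 23. With laser 1 rose and 3 fell, and with bur 1 rose and 7 fell, with list medians of -0.13 and -0.22. Among all genes 9.26% rose and 13.0% fell with laser, and 9.99% rose and 16.2% fell with bur. The medians of all genes were 0.02 and -0.0001. The hormone gene Pth and the receptor gene Pth2r did not pass the detection filter.

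Crtc2, a coactivator of the transcription factor CREB downstream of cyclic AMP, fell by 1.04 with laser (SE 0.26, limma adjusted p = 0.0210) and by 1.23 with bur (limma adjusted p = 0.00908). Arrb2, which encodes the beta-arrestin that quenches and internalises such receptors, fell by 0.85 with laser (SE 0.28, limma adjusted p = 0.0488) and by 0.97 with bur (limma adjusted p = 0.0281). Pth2, the gene of the peptide ligand of Pth2r, fell by 1.15 with laser (limma adjusted p = 0.0279) and by 1.35 with bur (limma adjusted p = 0.0132), and its other probe did not pass in either comparison. Pde4d, a phosphodiesterase gene that ends the cyclic AMP signal, fell by 0.88 with bur (limma adjusted p = 0.0127), and with laser it differed by -0.52 (limma adjusted p = 0.0812). Its other probes gave -0.92, -0.59, -0.37 and -0.19 with bur, of which -0.92 and -0.59 passed. Mef2c, a transcription factor gene of chondrocyte and osteocyte programmes, rose by 0.86 with laser (SE 0.23, limma adjusted p = 0.0249), and its other probe gave 0.32 and did not pass. With bur Mef2c differed by 0.49 (limma adjusted p = 0.121).

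Acan encodes aggrecan, the large proteoglycan of cartilage. Its signal was -4.56, -4.00, -3.20 and -4.01 on laser arrays and -4.61, -4.63, -3.94 and -3.13 on bur arrays, against -7.10, -5.13, -4.27 and -6.28 on control arrays. It was well above background on all treated arrays and on 3 of 4 control arrays, not on control replicate 1. Control replicate 3 lay within the range of the treated arrays and the other controls lay below all of them. The difference was 1.75 with laser (SE 0.56, 95% limits 0.52 and 2.98, limma adjusted p = 0.0457), or 3.36-fold. With bur it was 1.62 (SE 0.56, 95% limits 0.38 and 2.85, limma adjusted p = 0.0535), just short of the threshold. Laser minus bur, the test of the difference between the treatments, was 0.13 (95% limits -1.10 and 1.37, limma adjusted p = 0.9998).

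The Acan call depended on single arrays. Leaving out laser replicate 2, 3 or 4, bur replicate 1, 2 or 3, or control replicate 1, 2 or 4 ended the laser call (limma adjusted p = 0.0549 to 0.123), and without control replicate 3 the differences were 2.22 with laser (limma adjusted p = 0.00851) and 2.09 with bur (limma adjusted p = 0.00984). With normexp background correction the laser difference was 0.47 (limma adjusted p = 0.183), without the detection filter the adjusted p was 0.0712, and in a fit on laser and control arrays alone it was 0.0798.

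Comp encodes cartilage oligomeric matrix protein, found in cartilage, tendon and other fibrous tissue. Its signal was -0.93, -0.19, -0.77 and -2.83 on laser arrays and -1.45, -1.14, -1.65 and -2.23 on bur arrays, against -0.76, -3.15, -2.30 and -4.56 on control arrays. Controls spanned a range that took in every treated array but laser replicate 2, with an SD of 1.59. The difference of Comp was 1.51 with laser (SE 0.73, 95% limits -0.09 and 3.12, limma adjusted p = 0.149) and 1.08 with bur (95% limits -0.53 and 2.68, limma adjusted p = 0.288). Control replicate 1, the highest control, was also the array with the highest skeletal muscle markers, and without it laser minus control was 2.16 and bur minus control 1.72 (limma adjusted p = 0.0660 and 0.0933). Without control replicate 4, the lowest control, they were 0.89 and 0.45 (limma adjusted p = 0.363 and 0.646).

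Sox9, the transcription factor that sets the chondrocyte fate, was read by 4 kept probes. Through the brightest, at base 1508, its signal was -1.74, -2.18, -1.81 and -1.91 on laser arrays and -2.26, -2.41, -1.70 and -1.59 on bur arrays, against -2.24, -1.72, -1.57 and -1.99 on control arrays. The 3 groups overlapped. The difference was -0.03 with laser (95% limits -0.50 and 0.44, limma adjusted p = 0.923) and -0.11 with bur (95% limits -0.58 and 0.36, limma adjusted p = 0.732).

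The Sox9 probe at base 443 gave another result. It was well above background on 3 laser, 3 bur and 0 control arrays, with -5.48, -6.69, -5.97 and -6.76 on laser arrays and -5.64, -6.14, -7.04 and -5.84 on bur arrays, against -8.79, -6.65, -8.38 and -8.52 on control arrays. Set, per control array, against the dimmest signal of any probe well above background (or the probe's own signal where higher), it was at least 1.99-fold higher with laser (limma adjusted p = 0.0255 over probes) and at least 2.07-fold higher with bur (limma adjusted p = 0.0182 over probes), bounds that are approximate. The probe met the detection filter through treated arrays alone, which favours a rise, so these p-values are given as a description. Over all kept probes 9.05% rose with laser and 9.81% with bur. The probes at bases 1605 and 2276 did not pass in either comparison, with laser minus control of 0.09 and 0.39 and bur minus control of -0.26 and 0.74. No change of Sox9 therefore held across its probes.

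Sox5, a partner of Sox9 on cartilage matrix genes, had a signal of -3.71, -4.00, -4.34 and -4.48 on laser arrays and -4.33, -4.38, -4.43 and -4.04 on bur arrays, against -4.76, -4.18, -3.59 and -4.42 on control arrays. Sox5 differed by 0.11 with laser (95% limits -0.43 and 0.64, limma adjusted p = 0.774) and by -0.06 with bur (95% limits -0.59 and 0.48, limma adjusted p = 0.884). The second kept probe gave -0.26 and -0.04, and a further Sox5 probe was well above background on 1 array and was not tested.

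Of the other cartilage genes 23 were measured out of 32. With laser 3 rose and 2 fell, and with bur 1 rose and 2 fell, with list medians of 0.57 and 0.26. Among all genes 9.26% rose and 13.0% fell with laser, and 9.99% rose and 16.2% fell with bur. The medians of all genes were 0.02 and -0.0001. Col10a1, the collagen of hypertrophic cartilage, and Col9a1 did not pass the detection filter. Prg4, which encodes lubricin, rose to -1.51 ± 0.57 in laser and -1.38 ± 1.02 in bur bone, against -3.29 ± 0.85 in control bone (SD, n = 4 each), a difference of 1.78 with laser (limma adjusted p = 0.0362) and 1.91 with bur (limma adjusted p = 0.0244). Col11a1, a fibrillar collagen chain of cartilage and of other connective tissue, rose by 1.35 with laser (SE 0.35, limma adjusted p = 0.0247) and differed by 0.72 with bur (limma adjusted p = 0.149). Sox6, the other partner of Sox9, fell by 1.43 with laser (SE 0.37, limma adjusted p = 0.0247) and by 1.59 with bur (limma adjusted p = 0.0134), and its other probe gave -1.06 and -1.15 and did not pass. Col9a2, a collagen IX chain, fell by 2.27 with laser (SE 0.52, limma adjusted p = 0.0174) and by 2.62 with bur (limma adjusted p = 0.00753).

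To describe cartilage genes in the tissue, 7 of 9 chondrocyte markers were measured, 3 of them among the 10 genes. The others are also on the list of other cartilage genes above, so these markers are no separate check. With laser 2 rose, Acan and Col11a2, and with bur 0 rose and 0 fell. Among all genes 9.26% rose and 13.0% fell with laser, and 9.99% rose and 16.2% fell with bur. Col11a2 was at 3.44 ± 0.30 in laser bone against 2.49 ± 0.68 in control bone (SD, n = 4 each, limma adjusted p = 0.0461), and with bur it differed by 0.23 (limma adjusted p = 0.601). Its other kept probes gave 1.49 and 0.65 with laser (limma adjusted p = 0.0467 and 0.298 over probes), so only the first of these passed. Col2a1, a collagen gene on this list, was well above background on all 12 arrays and did not pass. It differed by 0.24 with laser (limma adjusted p = 0.4885) and by -0.13 with bur (limma adjusted p = 0.720). Cnmd and Col9a1 were well above background on at most 1 and 3 of the 12 arrays. The list mean was -3.25 to -2.53 on laser and -3.48 to -2.86 on bur arrays, against -4.61 to -3.21 on control arrays, and control replicate 3 was the highest control.

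Markers of other cells moved with the comparisons with control, in which 13.0% of all genes fell with laser and 16.2% with bur. Erythroid markers fell in 14 of 15 genes in both, with a list mean of -0.81 to 0.90 on laser and -1.40 to 0.69 on bur arrays, against 0.74 to 2.87 on control arrays. Neutrophil markers fell in 7 of 12 genes with laser and 6 of 12 with bur, with a list mean of -0.27 to 1.17 on laser and 0.11 to 1.45 on bur arrays, against 0.99 to 3.05 on control arrays. B cell markers fell in 4 and 5 of 12 genes and adipocyte markers in 6 of 8 genes in each comparison. Of all control arrays, replicate 3 was lowest in the erythroid and neutrophil lists.

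Among bone and connective tissue markers many did not pass the test with laser and most did not with bur. None of these markers passed between laser and bur. Among all genes 9.26% rose and 13.0% fell with laser, and 9.99% rose and 16.2% fell with bur. Of 8 osteocyte markers 5 rose with laser and 1 with bur, with a list mean of -0.62 to 0.45 on laser and -1.01 to -0.23 on bur arrays, against -1.61 to -0.75 on control arrays. Of 15 osteoblast and bone matrix markers 6 rose and 1 fell with laser, and 1 rose and 1 fell with bur. Fibroblast and periosteum markers rose in 3 of 14 genes with laser and 4 with bur, with a list mean of 0.73 to 1.13 on laser and 0.51 to 1.34 on bur arrays, against -0.77 to 1.12 on control arrays. Macrophage markers rose in 3 and 5 of 12 genes, endothelial markers fell in 1 and 2 of 10, and no skeletal muscle marker of 9 passed. The part of these shifts in the values of Ihh, Acan, Hhip and Pth1r was not tested.

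**Figure D4:**
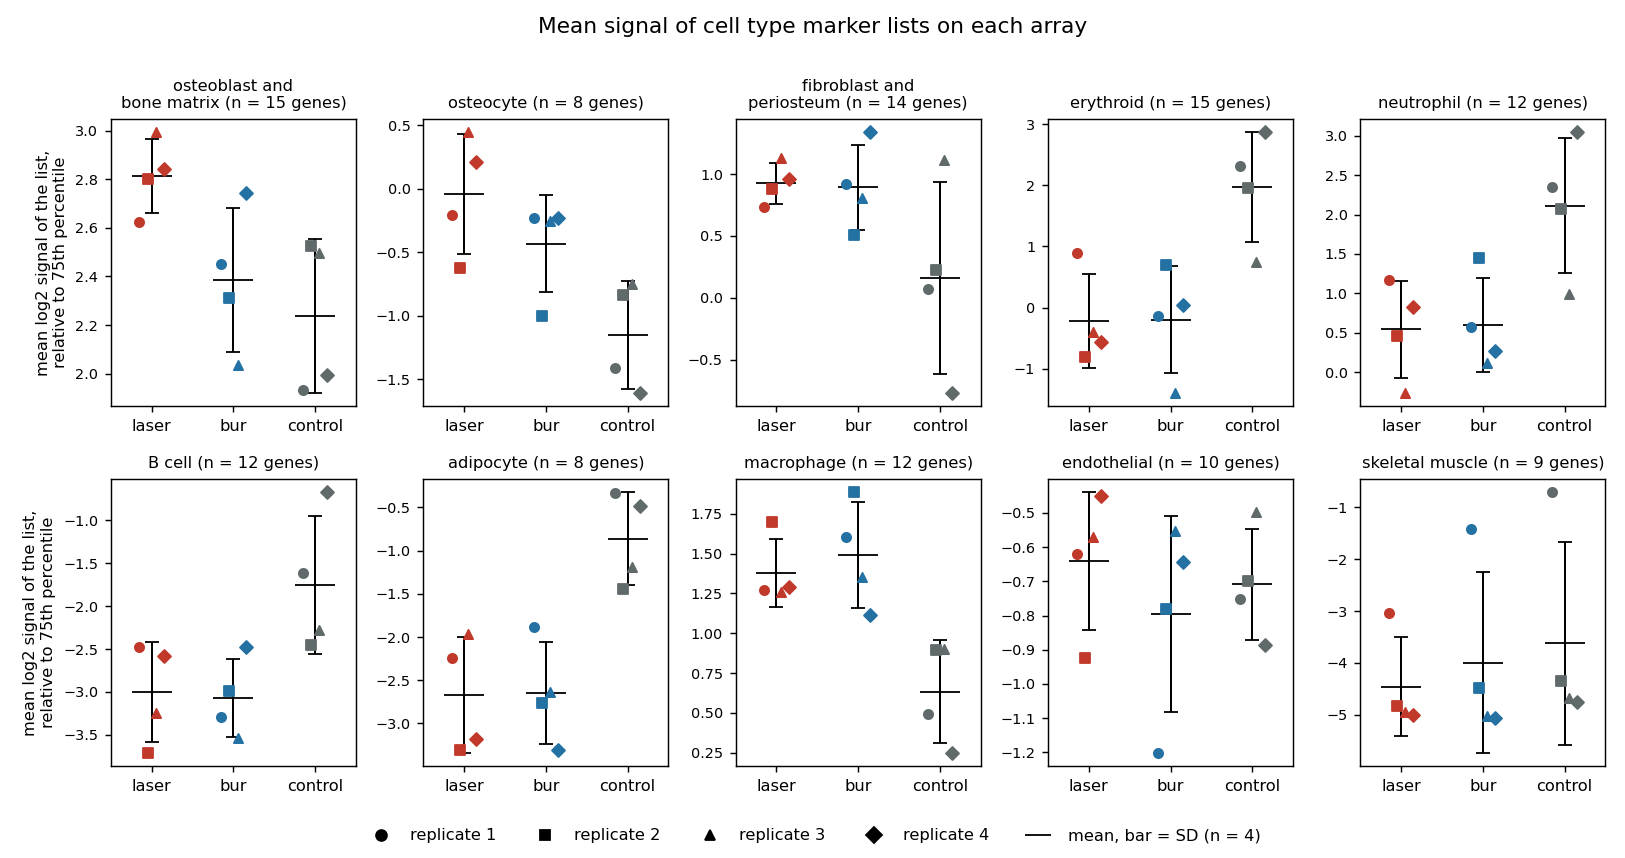
Mean log2 signal of 10 cell type marker lists on each array, relative to the array's 75th percentile, with mean and SD of the 4 arrays of the laser, bur and control groups. Erythroid, neutrophil and adipocyte lists are lower on treated than on most control arrays, the macrophage list is higher on all treated than on all control arrays, the osteocyte list is higher on all laser than on all control arrays while bur replicate 2 lies within the control range, and replicate 1 of each group has the highest skeletal muscle mean.

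The third comparison, of laser with bur bone, asked whether the instrument mattered. None of the 10 genes passed, each with a limma adjusted p of 0.9998, and over all genes 0% were called in either direction. At an unadjusted p under 0.05 there were 2 of the 10 genes, Ihh and Ptch1, and 574 of all genes. Laser was above bur without overlap for these 2 genes, against 1.57% of all genes, and below bur without overlap for 0 genes, against 0.581% of all genes.

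Ihh was 0.58 higher with laser (SE 0.19, 95% limits 0.17 and 0.99), as was Ptch1 by 0.60 (SE 0.27, 95% limits 0.02 and 1.19), and neither difference survived the adjustment. The differences of Gli1 and Hhip were 0.41 (95% limits -0.53 and 1.35) and 0.43 (95% limits -0.19 and 1.05). For Pthlh the difference was -0.003 (95% limits -0.86 and 0.85), and for Pth1r 0.22 (95% limits -0.11 and 0.55). The dimmer Pth1r probe was higher on every laser array than on every bur array, by 0.46 in the mean (limma adjusted p = 0.9998 over probes). Comp had 0.44 (95% limits -1.17 and 2.04), Sox9 0.08 (95% limits -0.40 and 0.55) and Sox5 0.16 (95% limits -0.37 and 0.70). In all, 9 of the 10 genes had a positive difference, against 54.1% of all genes, and their median was 0.31. For most of the 10 genes the limits leave room for differences of about the size seen against control. For Pth1r through its brighter probe, and for Acan, they fall short of that size. The limits do not show that laser and bur act alike on these genes.

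**Figure D5:**
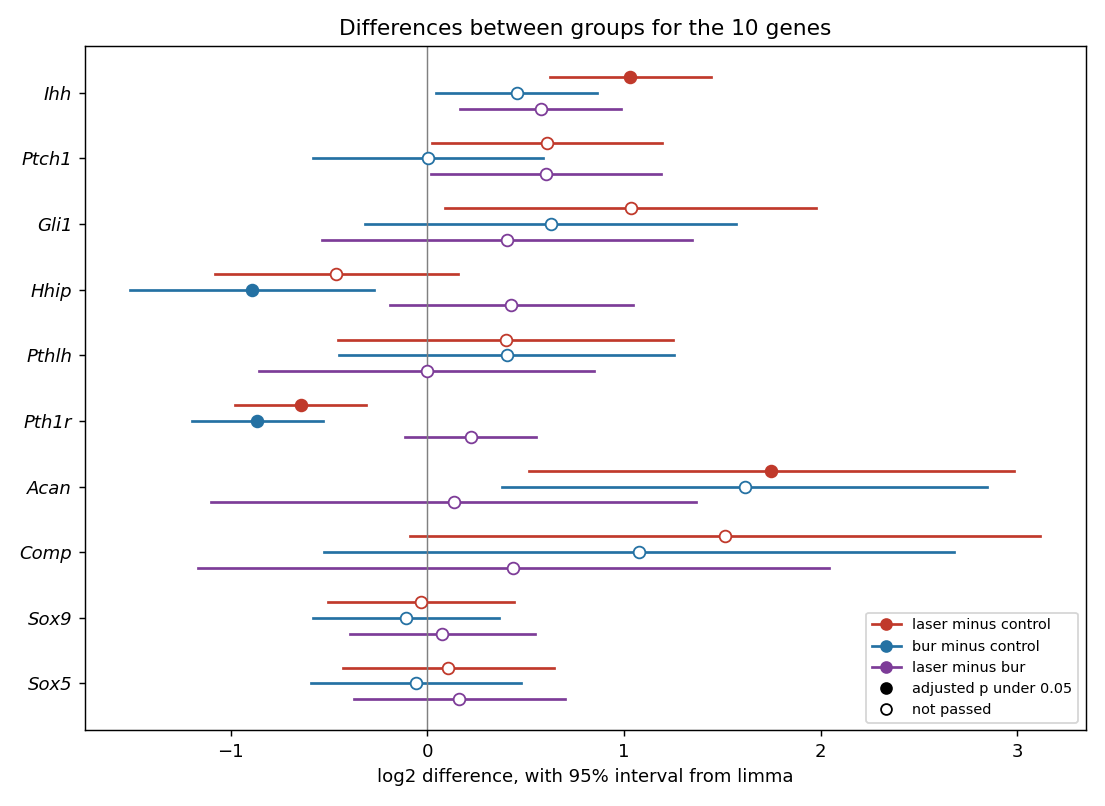
Log2 differences of the 10 genes with 95% limits from limma, laser minus control in red, bur minus control in blue and laser minus bur in purple, with filled points for adjusted p under 0.05. Ihh, Acan and Pth1r passed with laser, Hhip and Pth1r with bur, and no gene between laser and bur.

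The 10 genes varied more between arrays of a group than the median of all genes. Most of them were read by dim probes, and they were not compared with genes of like signal. Their median SD was 0.36 in laser, 0.43 in bur and 0.53 in control bone, against 0.26, 0.25 and 0.34 for all genes. The widest of the 3 SDs was that of control bone for 5 genes, of bur for 4 and of laser for 1. Control replicate 3 was the highest control for 6 of the 10 genes, while control replicates 1 and 4 were the lowest for 5 and 4. Laser replicate 3 was the highest laser array for 6 genes.

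The authors' deposited table for laser minus control gave 0.79 for Ihh (adjusted p = 0.00471), 0.99 for Acan (adjusted p = 0.00962) and -0.64 for the brighter Pth1r probe (adjusted p = 0.00969). For Ptch1 and Comp, which did not pass here, the authors' deposited table gave 0.47 (adjusted p = 0.0130) and 1.37 (adjusted p = 0.0381). For bur minus control the authors' deposited table gave 0.39 for Ihh (adjusted p = 0.0439), 0.91 for Acan (adjusted p = 0.0112), -0.84 for the brighter Pth1r probe (adjusted p = 0.00300) and -0.20 for Hhip (adjusted p = 0.274). The dimmer Pth1r probe did not fall in the authors' deposited table, with 0.49 for laser (adjusted p = 0.0751) and 0.05 for bur (adjusted p = 0.851). The authors' deposited table thus passed Ihh and Acan with bur and did not pass Hhip. It called 6986 of its 23269 lines with laser and 7633 with bur, against 5061 and 5948 of 22718 genes here. A larger share of all entries passed there, so its added passes are no result about these genes. For laser minus bur each of the 10 genes had an adjusted p of 0.9999 in the authors' deposited table.

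The genes whose profile lay closest to a member were found by the root mean square difference between profiles over the 12 arrays, each gene centred on its own mean, among 14440 gene symbols. Closest to Ihh were Lgals2 (0.15), Eri3 (0.17) and Slc16a8 (0.17), against an SD of Ihh over the 12 arrays of 0.50. Closest to Ptch1 were Bmp3 (0.23), Ephb4 (0.23) and Irs1 (0.25), and closest to Gli1 were Enox1 (0.20), Colec12 (0.26) and Fzd6 (0.26). For Pthlh they were Krt10 (0.29), Vmo1 (0.30) and Eml6 (0.31), and for Pth1r Sephs2, Pim2 and Klb (0.13 each). Closest to Acan were Abcb1b (0.30), Gli3 (0.39) and Shc3 (0.39), against an SD of Acan of 1.16. These likenesses are descriptions over arrays that share slides, and none of the 10 genes was among the 3 closest of the 6 genes examined.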

How the data were processed

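The members and gene lists were chosen with earlier results of these data known. The deposited scanner files hold linear spot intensity, made with Agilent Feature Extraction 11.0.1.1 per the submitters' processing notes, with protocol GE1_1100_Jul11 and rn4 probe positions per the file headers. Per the file headers, the background had been subtracted from this processed intensity and a spatial trend removed, 1 array at a time. The authors deposited, besides, a table of log2 values whose name says quantile-normalized, and tables of log2 changes with p-values. The steps between are not given in the sources used here.

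Log2 of the processed intensity minus that of the 75th percentile of the array's 58717 non-control spots was used. Outlier-flagged spots were dropped unless all spots of a probe were flagged, and spots of a probe were averaged. None was saturated. Kept probes stood well above background on 4 or more of 12 arrays (29775 of 45598 probes), and the brightest kept probe stood for a gene name. The number of arrays limits the precision. Differences were tested, two-sided, with limma 3.58.1 in R 4.3.3 (lmFit and eBayes, all 12 arrays, a mean for each group), with Benjamini-Hochberg adjustment over 22718 genes. Other probes of a gene were tested in the same fit over all kept probes. The fit was also run on simulated data with independent arrays and no effect of slide or replicate number. That run therefore says nothing about such effects here.

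Named are all 10 genes, and from each list up to 4 genes past the threshold with the largest change in a comparison. For Ihh, Ptch1, Gli1, Pthlh, Pth1r and Acan the 3 closest profiles are named. Col9a1, Cnmd, Col10a1, Shh, Dhh, Hhat, Scube3, Pth and Pth2r are named only as not kept. Col2a1 is named besides, as a measured chondrocyte marker that did not pass.

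Arrays with the same replicate number deviated together from their group means between laser and control (correlations 0.34, 0.18, 0.22 and 0.13) and between laser and bur (0.25, 0.24, 0.16 and 0.34). Between bur and control they did not in every pair (0.28, -0.05, 0.28 and 0.08). Where all these correlations passed a set cutoff the numbers were taken as a pairing, hence for laser with control and with bur. They were not so taken for bur with control. A pairing of laser with both would also pair bur with control, so this split describes the correlations and not the design. On every array the replicate number was also the row on its slide, so number and row cannot be told apart. Arrays of different numbers reached 0.12, 0.14 and 0.32.

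Alternatives were normexp background correction (offset 50), quantile normalization, no detection filter, the replicate number as a block, only the groups compared, the mean of a gene's kept probes, the deposited log2 table, leaving out each array, and, added after seeing the data, each other kept probe.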

Additional observations from a re-analysis of the deposited data

Results flagged for a closer look

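Pthlh on bur replicate 1 was at -1.99 on the log2 scale, far above the other bur arrays, which lay between -3.60 and -3.34. The gap to the nearest array was 0.835 of the group's range, past Dixon's 95% critical value for 4 samples. It was 1 of 30 groups examined, and chance alone marks about 1 group in 20.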

How the results depend on the processing

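Ihh with laser and Pth1r with bur kept their direction and passed when any 1 array was left out; exceptions under other settings stand beside those results. Leaving out 1 array at a time moved the number of genes called from 1245 to 7994 for laser minus control and from 2789 to 8397 for bur minus control, in each case lowest without control replicate 1 and highest without control replicate 3. The number called among the 10 genes moved from 1 (without laser replicate 2 or control replicate 1) to 5 (without control replicate 3) and from 1 to 3. The differences that changed sign among these fits spanned -0.15 to 0.070 (Sox9) and -0.068 to 0.32 (Sox5) for laser minus control. They spanned -0.20 to 0.24 (Ptch1), -0.24 to 0.032 (Sox9) and -0.23 to 0.16 (Sox5) for bur minus control, and -0.17 to 0.37 (Pthlh), -0.11 to 0.45 (Acan) and -0.066 to 0.21 (Sox9) for laser minus bur.

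With normexp 1 of the 10 genes passed for laser minus control, and Sox5 turned to -0.018 there, Ihh to -0.013 and Ptch1 to -0.29 for bur minus control, and Pthlh to 0.073 for laser minus bur. The median of all genes then lay at -0.08, -0.24 and 0.13, so relative to it Ihh with bur stayed positive. Normexp gave 1187 higher and 2438 lower genes for laser minus control and 1646 higher and 6306 lower for bur minus control. With quantile normalization 4 of the 10 genes passed for bur minus control, 2 higher (Ihh and Acan) and 2 lower, and Sox5 turned to 0.030. The share of all genes called under that setting is not given here, so this count is no result about the 10 genes. Without the detection filter 3172 genes passed for laser minus control (1199 higher, 1973 lower), and 1 gene for laser minus bur. Without the filter bur minus control had 2108 higher and 5750 lower genes.

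Fitting only the groups compared left 1758 genes for laser minus control and 1 of the 10 genes for bur minus control; this setting has fewer samples. With the mean of the kept probes 1 of the 10 genes passed for bur minus control, Sox9 turned to 0.58 with laser and 0.57 with bur, and Sox5 to -0.075 with laser and -0.026 for laser minus bur. For bur minus control the share of all genes called under either setting is not given, so these counts are no result about the 10 genes. Through other single probes, an alternative chosen after seeing the data, Pth1r turned to 0.53 and 0.072 with laser and bur, Sox5 to -0.26 with laser and -0.22 for laser minus bur, and Sox9 to 1.86 and 1.92 (base 443), to 0.089 with laser (base 1605) and to 0.39 and 0.74 (base 2276). For laser minus bur Sox9 turned to -0.058 (base 443) and -0.36 (base 2276). For the other settings the cause was not tested.

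With the replicate number as a block 5771 genes passed for laser minus control and 6578 for bur minus control, and the only call among the 10 genes that changed was Acan with bur (limma adjusted p = 0.0269), where the numbers were not taken as a pairing. Slide as a block was not run, since slide and group coincide. Dim probes limit the precision: Acan on control replicate 1, Hhip on bur replicate 3 and the Sox9 probe at base 443 on all control arrays were not well above background.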
